A study of Mus musculus with 2 samples.

Results

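Immediate early response genes are transcribed within minutes of a stimulus, from chromatin that is already open and without new protein synthesis. A set of 37 of them was taken by gene symbol from the 32285 genes in the count matrices of mouse colon lamina propria cells, and all 37 were found once in each matrix. The series held 2 single-cell libraries, 1 titled Runx3_fl and 1 titled Runx3. The study compared RUNX3 fl/fl mice that carry Lyz2-Cre, which is active in macrophages, monocytes and neutrophils, with RUNX3 fl/fl littermates without it, so all mice shared the floxed alleles. The mice are described as male and 8 weeks old, the cells of several mice were pooled for each library, and no treatment is given in the labels. Each group therefore had 1 library, no difference could be tested over animals, and every interval below covers counting error only.

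These genes form the first transcriptional layer downstream of growth factor, cytokine, antigen and stress receptors. MAP kinases act on SRF with its ETS partners and on CREB, which switch on Fos, Egr1 and their relatives. The Fos and Jun proteins pair into the factor AP-1. Other products, among them the dual-specificity phosphatases, IκBα and SOCS3, dampen signalling downstream of these receptors, so that transcription is brief. Transcripts of these genes are known to be induced in many cell types by enzymatic digestion, warming and other handling of tissue before capture.

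The labels did not assign a genotype to either title, and the libraries differed in ways that bear on every value below. Runx3 itself was not lower in the library labelled Runx3 in macrophages, where it made up 236 of each 1000000 UMIs (counts scaled in this way are written CPM) against 158 in the library labelled Runx3_fl. The study described its mice for these libraries as male, yet Xist, transcribed from the inactive X chromosome, was at 110 to 343 CPM in the 7 cell classes of the library labelled Runx3_fl and at 0 to 3 UMIs per class in the other. The labels name the cells as positive for CD11b, encoded by Itgam. T, B and plasma cells were also present, with Itgam at 12 to 51.4 CPM in these classes. In the library labelled Runx3_fl Itgam was at 146 CPM in NK cells, 133 in macrophages and 37.8 in dendritic cells. In the library labelled Runx3 these values were 121, 235 and 104 CPM. Of 12968 and 8953 deposited cells, 11885 and 8167 had 200 to 6000 genes and at most 15% mitochondrial UMIs, and 37 barcodes occurred in both libraries. Any effect of genotype, sex of the mice, handling or sequencing run cannot be told apart between 2 single libraries.

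Cells were sorted into 7 classes by their UMIs of gate genes, and cells that passed more than 1 gate were left out. The classes held 251 and 271 macrophages (Csf1r and C1qa), 895 and 450 conventional dendritic cells (cDC, Flt3), 1372 and 1418 cells with Csf3r, 1292 and 101 NK cells (Ncr1), 2824 and 384 T cells (Cd3e), 143 and 1066 B cells (Cd79a) and 262 and 220 plasma cells (Mzb1 and Jchain), the library labelled Runx3_fl being given first here and wherever a pair of values stands without names. Each class held all of its own marker genes in both libraries, but several classes also held those of another. In the Csf3r gate 10 macrophage markers reached 75.4% and 42.6% of their level in macrophages and 9 cDC markers 57.5% and 37.2% of their level in cDC, so this class is named by its gate and not as neutrophils. The cDC markers, among them H2-Ab1 and Cd74 of antigen presentation, which macrophages and B cells also express, reached 93.1% and 82.2% of the cDC level in macrophages and 47.6% and 53.5% in B cells. In plasma cells 7 B cell markers were at 54.6% and 56.8% of the B cell level, and in T cells 8 NK markers were at 31.9% and 5.49% of the NK level. Cells of several classes were shallower in the library labelled Runx3, with median depths of 12850 and 6312 UMIs in macrophages and 23839 and 7744 UMIs in plasma cells. Levels are therefore given as CPM over the summed UMIs of a class.

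The DNA just before the start of these genes is shown for 8 members, with letters that match elements of the pathway described above. The stretches come from the RefSeq promoter table for GRCm38.p6, the build that matches mm10, and are written 5′ to 3′ on the strand of the gene. Capitals mark 1 match of each stretch and further matches are left in lower case. TGACG, the core that CREB and ATF proteins bind, began 66 bases before the start of Fos (chr12:85473796-85473855, + strand), 7 before Cebpb (chr2:167688855-167688914, +), 241 before Klf2 (chr8:72318812-72318871, +) and 41 before Mafk (chr5:139791453-139791512, +).
Fos: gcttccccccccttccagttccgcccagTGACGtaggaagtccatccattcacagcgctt
Cebpb: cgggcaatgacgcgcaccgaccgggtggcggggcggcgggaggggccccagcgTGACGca
Klf2: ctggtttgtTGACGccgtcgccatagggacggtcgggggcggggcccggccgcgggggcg
Mafk: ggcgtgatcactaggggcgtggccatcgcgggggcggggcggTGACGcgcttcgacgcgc
The full palindrome TGACGTCA, which contains TGACG on both strands, began 12 bases before Ppp1r15a (chr7:45526269-45526328, − strand), 143 before Dusp1 (chr17:26508582-26508641, −) and 166 before Btg2 (chr1:134079288-134079347, −). The stretch of Dusp1 precedes its RefSeq start but lies inside the longer span that GENCODE M21 gives this gene (chr17:26505590-26562128). A CArG box, the site of SRF, began 72 bases before Dusp5 (chr19:53529048-53529107, +).
Ppp1r15a: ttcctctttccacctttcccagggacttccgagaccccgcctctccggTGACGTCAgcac
Dusp1: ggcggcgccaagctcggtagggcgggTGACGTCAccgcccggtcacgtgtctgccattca
Btg2: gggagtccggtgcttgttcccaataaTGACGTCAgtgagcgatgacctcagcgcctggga
Dusp5: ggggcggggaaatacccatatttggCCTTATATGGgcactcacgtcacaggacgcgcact

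The promoter table matched 28 of the 37 members. Egr1, Egr3, Ier2, Klf10, Myc, Trib1, Dusp4, Nfkbiz and Cebpd had no window in it. Sites beyond the reach of the windows were not searched. Searched on both strands, TGACG lay in the windows of 16 of the 28 members (57.1%) against 23.0% of the 27025 genes in the table. TGACGTCA lay in 4 of the 28 (14.3%) against 2.03% of genes, the CArG box in 2 (7.14%) against 1.81%, the NF-kB site in 6 (21.4%) against 5.14%, and TGACTCA, the AP-1 site, in 1 (3.57%) against 5.95%. These matches describe letters in the windows and no binding was measured.

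In each of the 7 classes the median early gene was at a higher level in the library labelled Runx3, by an amount that ranged widely between classes, while single members went either way. The median log2 ratio, always taken as the library labelled Runx3 against the library labelled Runx3_fl and on CPM + 1, was 1.74 in plasma cells and 1.28 in T cells. It was 0.78 in cDC, 0.75 in macrophages, 0.51 in NK cells, 0.39 in Csf3r-gated cells and 0.26 in B cells. Over all genes tested the medians were −0.15 in plasma cells, 0.04 in T cells and between 0.04 and 0.21 in the other classes. Summed over the 37 genes, the level went from 3476 to 9179 CPM in plasma cells and from 5843 to 12188 CPM in T cells. Macrophages stood at 11465 and 16571 CPM. The counting interval of the ratio lay above 0 for 31 of 34 members in plasma cells and below 0 for 2. In Csf3r-gated cells it lay above 0 for 24 of 34 and below for 9, and in B cells above for 16 of 36 and below for 5. The share of all genes with intervals away from 0 was not counted, so these counts do not set the members apart from other genes.

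Counted by gene, with a mean of at least 10 CPM required and 2-fold as the limit, 26 of 34 members were higher in plasma cells, where 11.7% of all genes tested were. In T cells it was 24 of 35, beside 11.2% of all genes. Among the myeloid classes 15 of 36 members were higher in cDC (5.99% of all genes), 13 of 34 in macrophages (9.53%) and 6 of 34 in Csf3r-gated cells (9.34%). The counts were low in NK cells, with 4 of 34 (4.11% of all genes), and in B cells, with 3 of 36 (2.87%). The only member at least 2-fold lower anywhere was Nfkbiz in Csf3r-gated cells, where 3.07% of all genes were lower. No member was lower in macrophages, cDC, NK, T, B and plasma cells, where 3.15%, 1.47%, 1.12%, 8.86%, 2.66% and 17.3% of all genes were. The 1 to 3 members that missed the level limit in a class came from Cebpd, Egr2, Egr3, Ier5l, Dusp4, Dusp6 and Myc.

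**Figure D1:**
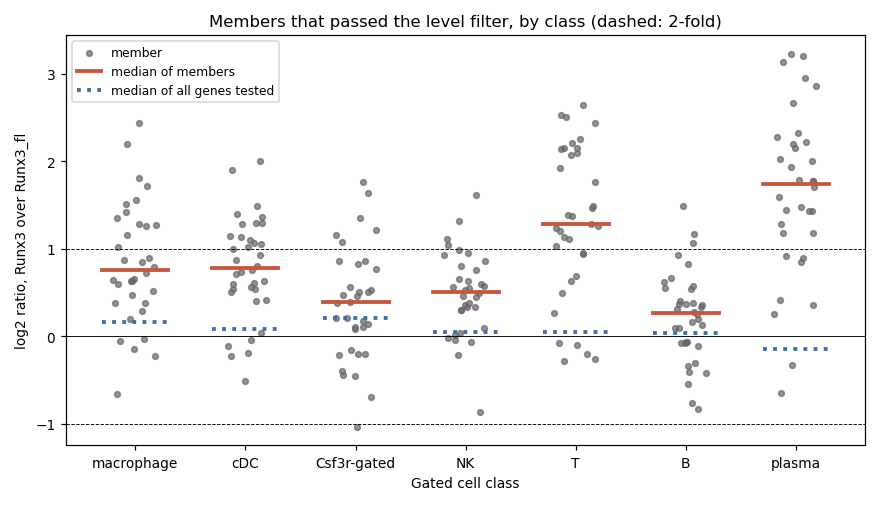
Log2 ratio of CPM + 1, library labelled Runx3 over library labelled Runx3_fl (vertical axis), for each early gene that passed the level limit in each of 7 gated classes (horizontal axis); points are genes, red bars the members' median, dotted blue bars the median of all genes tested and dashed lines 2-fold. The medians run from 0.26 in B cells to 1.74 in plasma cells, with no member below −1 except Nfkbiz in Csf3r-gated cells.

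By the number of classes the genes fell into 4 sets. Shared genes, at least 2-fold higher in 4 or more classes, numbered 12 of the 37: Fos, Jun, Mafk, Cebpb, Egr1, Klf2, Klf10, Ier2, Ier3, Ier5, Rhob and Ppp1r15a. Of the 9884 genes that passed the level limit in some class, 168 (1.7%) were higher in 4 or more classes and 47 (0.476%) lower, and no member was lower in 4. Class-specific genes, past 2-fold in exactly 1 class, numbered 6, a further 14 were past it in 2 or 3 classes, and Jund, Klf6, Myc, Dusp4 and Dusp5 in none. For 10 members the counting interval of the ratio lay above 0 in every class where they passed the limit, namely Jun, Junb, Mafk, Cebpb, Cebpd, Ier2, Ier3, Ier5, Rhob and Dusp1. Cebpd passed the limit in macrophages, cDC and Csf3r-gated cells alone. How many of all genes had such intervals in every class was not counted.

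**Figure D2:**
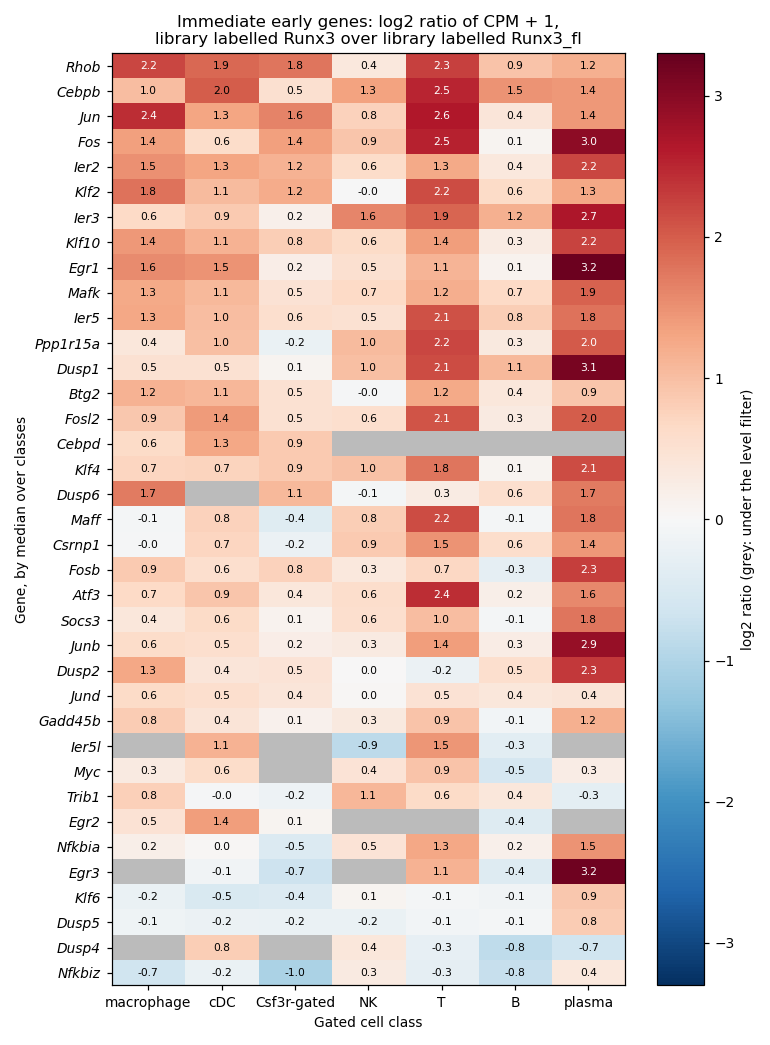
Map of the log2 ratio of CPM + 1 (colour and printed value; red, higher in the library labelled Runx3) for the 37 early genes (rows, ordered by their median) in 7 gated classes (columns), with grey where a gene was under the level limit. Red fills the T and plasma columns for most genes, while Nfkbiz, Dusp5 and Klf6 at the bottom are pale or blue in most classes.

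Among the AP-1 genes Fos, whose protein forms AP-1 only in a pair with a Jun protein, was at 310 CPM in macrophages, 350 in cDC, 316 in Csf3r-gated cells, 89.8 in NK, 66.8 in T, 199 in B and 92.4 in plasma cells of the library labelled Runx3_fl. The same classes of the library labelled Runx3 held 793, 531, 809, 171, 392, 212 and 724 CPM of Fos. T and plasma cells, which with NK cells were lowest in the first library, showed the widest gaps, with log2 ratios of 2.53 (95% counting interval 2.45 to 2.65) and 2.96 (2.83 to 3.11). In macrophages and Csf3r-gated cells the ratio was 1.35, in NK cells 0.93, in cDC 0.60, and in B cells 0.09 with an interval that held 0 (−0.13 to 0.31).

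Jun, the partner that also forms AP-1 with itself, was at 84.6 CPM in macrophages, 158 in cDC, 135 in Csf3r-gated cells, 140 in NK, 49.3 in T, 144 in B and 195 in plasma cells of the library labelled Runx3_fl. It was at 463, 390, 423, 237, 314, 190 and 530 CPM in the library labelled Runx3. No class was lower in the second library, and the log2 ratios were 2.44 (2.26 to 2.65) in macrophages, 1.30 in cDC, 1.64 in Csf3r-gated cells, 0.76 in NK, 2.65 (2.56 to 2.78) in T, 0.40 in B and 1.44 in plasma cells. Jun had the highest ratio of all members in both macrophages and T cells.

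The other AP-1 genes were less even. Fosb, a Fos paralogue, was past 2-fold in plasma cells alone, at 128 and 622 CPM (log2 ratio 2.27), and its ratio ran from −0.31 in B cells to 0.87 in macrophages elsewhere. Junb was at 973 and 2547 CPM in T cells (1.39) and at 107 and 781 CPM in plasma cells (2.86), with ratios of 0.21 to 0.60 in the remaining classes. Jund, which resting cells also express, had ratios of 0.04 to 0.63 and passed 2-fold in no class. Fosl2 was past it in cDC, T and plasma cells. Atf3, a stress-induced member of the CREB and ATF family that pairs with Jun, was past it in T cells (21.6 and 122 CPM, 2.44) and plasma cells (49.0 and 150 CPM, 1.59). Of the 7 AP-1 genes, 6 were at least 2-fold higher in plasma cells (11.7% of all genes) and 5 in T cells (11.2%). It was 2 each in macrophages (9.53%), cDC (5.99%) and Csf3r-gated cells (9.34%), and 0 in NK (4.11%) and B cells (2.87%).

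**Figure D3:**
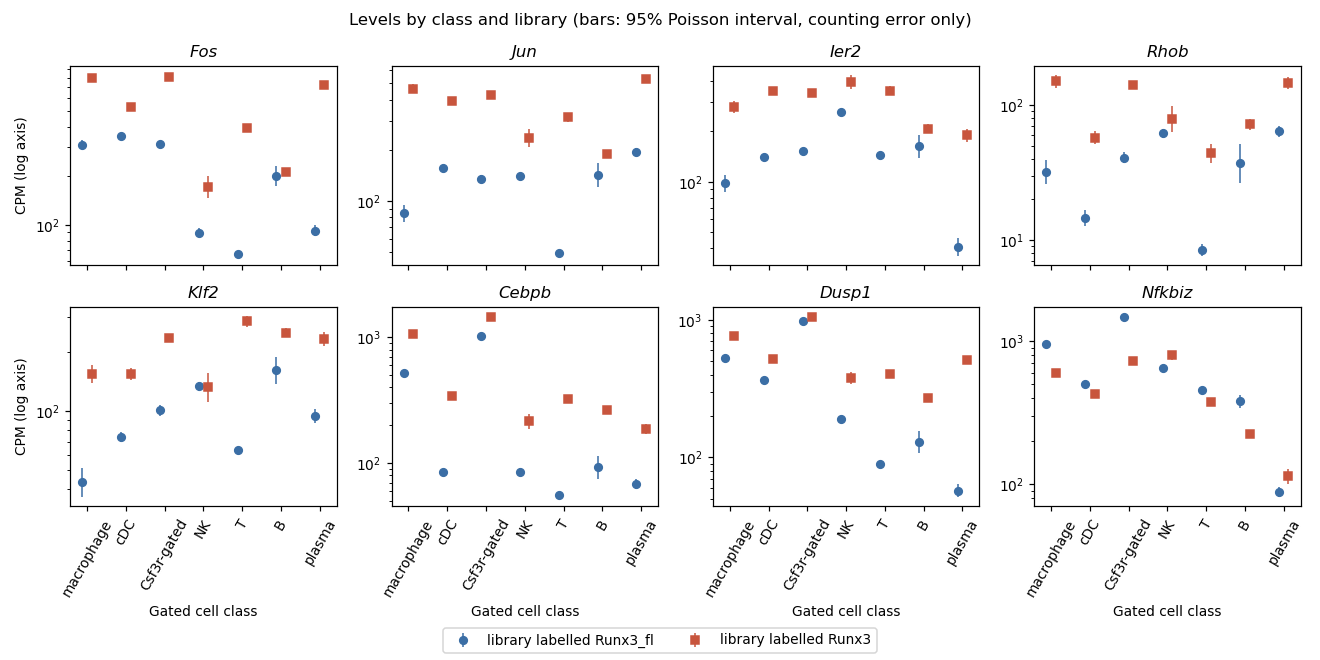
Level in CPM (vertical axis, logarithmic) of 8 early genes in 7 gated classes (horizontal axis), blue circles for the library labelled Runx3_fl and red squares for that labelled Runx3, with 95% Poisson intervals for counting error. Jun, Ier2, Rhob, Cebpb and Dusp1 lie higher in the library labelled Runx3 in all 7 classes, whereas Nfkbiz lies lower in macrophages, cDC, Csf3r-gated, T and B cells.

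Among the other leucine zipper genes Cebpb, a factor of macrophage and granulocyte maturation and of the acute phase response, was past 2-fold in 6 classes, the most of any member. It was at 526 CPM in macrophages, 84.6 in cDC, 1018 in Csf3r-gated cells, 85.4 in NK, 56.0 in T, 93.1 in B and 68.0 in plasma cells of the library labelled Runx3_fl, and at 1068, 341, 1464, 214, 321, 262 and 187 CPM in the other. The log2 ratios were 1.02, 2.00, 0.52, 1.32, 2.5, 1.49 and 1.44 in the same order. Its highest levels in both libraries were in macrophages and Csf3r-gated cells, and the ratio was smallest where the level was highest. It was the member with the highest ratio in cDC and in B cells.

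Mafk and Maff encode small Maf proteins, which bind DNA but lack an activation domain of their own. Mafk was at 24.3 to 68.3 CPM in 6 classes of the library labelled Runx3_fl and at 6.43 CPM in plasma cells, against 57.3 to 98.4 CPM and 27.5 CPM in the other library. Its log2 ratios were 1.26 in macrophages, 1.07 in cDC, 0.47 in Csf3r-gated cells, 0.65 in NK, 1.21 in T, 0.66 in B and 1.94 in plasma cells. Maff was not shared in this way, with 2.15 in T and 1.77 in plasma cells but −0.39 (−0.47 to −0.32) in Csf3r-gated cells and −0.05 in macrophages. Cebpd, a relative of Cebpb, was past 2-fold in cDC alone, at 8.19 and 21.4 CPM (1.29), and had 0.63 in macrophages and 0.86 in Csf3r-gated cells.

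Egr1 leads the zinc finger genes and encodes the factor that the ERK pathway switches on through SRF. It was at 112 CPM in macrophages, 106 in cDC, 348 in Csf3r-gated cells, 206 in NK, 137 in T, 184 in B and 24.4 in plasma cells of the library labelled Runx3_fl, and at 332, 299.95, 403, 297, 297, 201 and 238 CPM in the library labelled Runx3. The plasma cells, far below every other class in the first library, lay within the range of the others in the second. Their log2 ratio of 3.23 (3.02 to 3.55) was the highest of any member in any class, and the others were 1.56 in macrophages, 1.49 in cDC, 0.21 in Csf3r-gated cells, 0.53 in NK, 1.11 in T and 0.12 (−0.10 to 0.36) in B cells. Egr3, which antigen receptor signals induce in lymphocytes, was highest in B cells of both libraries, at 168 and 125 CPM, and had 3.21 in plasma cells, from 4.18 and 46.8 CPM, against −0.69 in Csf3r-gated cells. Egr2 was past 2-fold in cDC alone, at 5.16 and 14.9 CPM (1.37), with −0.41 to 0.47 in the other 3 classes where it passed the level limit.

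Klf2, which keeps T cells quiescent and able to leave tissue, was at 43.6 CPM in macrophages, 73.8 in cDC, 101 in Csf3r-gated cells, 134 in NK, 63.4 in T, 162 in B and 94.5 in plasma cells of the library labelled Runx3_fl. In the other library these values were 155, 154, 235, 132, 286, 250 and 232 CPM. NK cells were the exception to an otherwise shared difference: the log2 ratio was −0.02 (−0.28 to 0.23) there, against 1.80, 1.05 and 1.21 in macrophages, cDC and Csf3r-gated cells, 2.15 in T, 0.62 in B and 1.29 in plasma cells. Klf10, a gene induced by TGF-β, was at 30.2 to 56.5 CPM outside plasma cells (8.52 CPM) in the first library and at 43.4 to 101 CPM over all classes in the second. It had log2 ratios of 1.42 in macrophages, 1.15 in cDC, 0.82 in Csf3r-gated cells, 0.63 in NK, 1.37 in T, 0.27 in B and 2.22 in plasma cells.

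Klf4 and Klf6 differed from each other. Klf4, a monocyte differentiation factor, was past 2-fold in T cells (57.4 and 198 CPM, 1.77) and plasma cells (35.2 and 160 CPM, 2.15), with 0.09 to 0.96 elsewhere. Klf6 was at 1259 and 1078 CPM in macrophages (−0.22), 1179 and 824 CPM in cDC (−0.52) and 1202 and 883 CPM in Csf3r-gated cells (−0.44), so that it was lower in all 3 myeloid gates beyond counting error. Its ratio in plasma cells was 0.90. It was the lowest member in cDC.

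The Ier genes, named for immediate early response, held 3 of the 12 shared genes. Ier2, a nuclear protein, was at 97.7 CPM in macrophages, 141 in cDC, 152 in Csf3r-gated cells, 261 in NK, 145 in T, 163 in B and 40.7 in plasma cells of the library labelled Runx3_fl, and at 280, 347, 339, 395, 350, 208 and 190 CPM in the other. Its log2 ratios were 1.51, 1.30, 1.15, 0.60, 1.26, 0.35 and 2.20 in that order, and every interval lay above 0. Ier5, a cofactor of heat shock factor HSF1, was at 83.8 to 327 CPM and at 290 to 502 CPM over the classes, with 1.27 in macrophages, 1.02 in cDC, 0.57 in Csf3r-gated cells, 0.49 in NK, 2.09 in T, 0.82 in B and 1.78 in plasma cells.

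Ier3, which limits cell death, was shared by a different set of classes. Its log2 ratios were 1.61 in NK, 1.92 in T, 1.17 in B and 2.67 in plasma cells, against 0.65 in macrophages, 0.87 in cDC and 0.17 in Csf3r-gated cells. The classes with the high ratios were those with low levels in the library labelled Runx3_fl, at 25, 24.9, 44.5 and 9.49 CPM, and they reached 78.5, 97.1, 101 and 65.8 CPM in the other. Macrophages held 513 and 804 CPM and Csf3r-gated cells 726 and 818 CPM. Ier5l was low, under 30 CPM in every class, and was the lowest member in NK cells (28.7 and 15.3 CPM, −0.86, interval −1.73 to −0.18) while T cells had 1.47.

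Of the remaining regulators Rhob, a small GTPase of endosomes that stress induces, was at 32.1 CPM in macrophages, 14.6 in cDC, 40.8 in Csf3r-gated cells, 61.7 in NK, 8.42 in T, 37.4 in B and 63.8 in plasma cells of the library labelled Runx3_fl. It was at 151, 57.4, 141, 79.5, 44.0, 72.4 and 146 CPM in the library labelled Runx3. The ratios were high in the myeloid gates and in T cells, with 2.19 in macrophages, 1.91 in cDC, 1.76 in Csf3r-gated cells and 2.25 in T cells, and lower in plasma cells (1.18), B cells (0.93) and NK cells (0.36, 0.02 to 0.69). Rhob was the highest member in Csf3r-gated cells. Btg2, which slows the cell cycle, was past 2-fold in macrophages (1.16), cDC (1.10) and T cells (1.24), and had −0.04 in NK cells. Csrnp1, a nuclear protein that axin induces, was past it in T (1.49) and plasma cells (1.43). Its gene overlaps Cx3cr1 on the same strand, so its counts are uncertain. Myc, which drives growth and division, had −0.55 in B cells and 0.95 in T cells and passed 2-fold in no class.

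The phosphatases, which turn MAP kinases off, differed among themselves. Dusp1, which acts on JNK and p38, was at 532 CPM in macrophages, 367 in cDC, 980 in Csf3r-gated cells, 190 in NK, 90 in T, 129 in B and 57.1 in plasma cells of the library labelled Runx3_fl, and at 760, 521, 1052, 375, 401, 272 and 510 CPM in the other. T, B and plasma cells passed 2-fold, with log2 ratios of 2.14, 1.06 and 3.14 (2.99 to 3.33), and the others had 0.10 to 0.98. Dusp1 overlaps 2 unnamed genes on its strand, AC122252.1 and AC122252.4, and its counts may be shared with them.

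Dusp5, a nuclear phosphatase of ERK, was by contrast at 399 and 361 CPM in macrophages, 402 and 351 CPM in cDC, 929 and 799 CPM in NK and 563 and 526 CPM in T cells. Its ratio was −0.22 to −0.08 in 6 classes and 0.85 in plasma cells. Dusp4 was highest in plasma cells, at 227 and 144 CPM (−0.65), and lower also in B cells (107 and 59.8 CPM, −0.83), the lowest member in both classes. Dusp2 was past 2-fold in macrophages (1.28) and plasma cells (2.33) and had −0.20 in T cells. Dusp6, the cytoplasmic ERK phosphatase, was past it in macrophages (23.5 and 79.4 CPM, 1.71), Csf3r-gated cells (1.07) and plasma cells (1.70), with −0.07 in NK cells. Among the phosphatases 1 of 5 was at least 2-fold higher in T cells, against 5 of 7 AP-1 genes and 11.2% of all genes. The median log2 ratio of the phosphatases in T cells was −0.10 against 2.07 for the AP-1 genes.

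The feedback inhibitors were also split. Ppp1r15a, which encodes the GADD34 subunit that restarts translation after stress, was at 645 CPM in macrophages, 310 in cDC, 969 in Csf3r-gated cells, 262 in NK, 136 in T, 304 in B and 86.7 in plasma cells of the library labelled Runx3_fl, and at 839, 621, 834, 538, 633, 384 and 357 CPM in the other. It had log2 ratios of 0.38, 1.00, −0.22, 1.04, 2.21, 0.33 and 2.03 in that order, shared by cDC, NK, T and plasma cells and slightly lower in Csf3r-gated cells. Nfkbia, encoding IκBα, which holds NF-κB in the cytoplasm, was past 2-fold in T cells (389 and 943 CPM, 1.28) and plasma cells (283 and 789 CPM, 1.47), was 0.04 (−0.01 to 0.08) in cDC, and was −0.45 in Csf3r-gated cells. Socs3, an inhibitor of JAK and STAT signalling, was past it in T (1.03) and plasma cells (1.78).

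Nfkbiz, which encodes the nuclear coactivator IκBζ, differed in direction from most members. It was at 953 and 603 CPM in macrophages, 502 and 429 CPM in cDC, 1481 and 722 CPM in Csf3r-gated cells, 458 and 375 CPM in T and 381 and 223 CPM in B cells. All 5 ratios lay below 0 beyond counting error, at −0.66, −0.23, −1.04, −0.29 and −0.77. NK cells, at 645 and 797 CPM, and plasma cells, at 88.9 and 114 CPM, had ratios of 0.30 and 0.35. It was the lowest member in macrophages, Csf3r-gated cells and T cells. Gadd45b, which feeds into p38 signalling, was past 2-fold in plasma cells alone (113 and 256 CPM, 1.18), with −0.08 to 0.94 elsewhere. Trib1, a pseudokinase that directs C/EBP proteins to degradation, was past it in NK cells alone (10.1 and 23.0 CPM, 1.11, interval 0.48 to 1.83), which rested on 24 UMIs in the library labelled Runx3, with −0.33 to 0.79 elsewhere.

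The levels were also more alike between classes in the library labelled Runx3. For each of the 30 members that passed the level limit in all 7 classes, the log2 distance between the highest and the lowest class was narrower in that library, in 30 of 30 cases. The median distance went from 3.15 to 1.78. Over all 5674 genes that passed in all 7 classes it went from 1.66 to 1.33 and was narrower for 73.6%. Egr1 went from a distance of 3.78 to 1.00 and Ier2 from 2.65 to 1.05, while Fos kept most of its own, 2.37 and 2.23. For Egr1, Ier2, Junb, Ier3, Dusp1 and Socs3, among others, the lowest class in the library labelled Runx3_fl was plasma cells. The makeup of that gate differed, since 90.1% and 40.0% of its cells held at least 10 Jchain UMIs. Its cDC markers were at 7.90% and 28.0% of the cDC level. The part of the plasma gate in the narrower distances was not tested.

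Counted per cell, the early genes differed over most of the distribution in some classes and hardly in others. After each cell was thinned to 2000 UMIs, and shallower cells were left out, a T cell held a median of 11 UMIs of the 37 genes (quartiles 7 to 16) where the label was Runx3_fl, against 23 (16 to 32) in the other library, so that the lower quartile of the second equalled the upper quartile of the first. Plasma cells held 6 (4 to 10) and 15 (9 to 22), macrophages 21 (17 to 27) and 32 (23 to 41). In NK cells the medians were 19 and 25, in cDC 19 and 24, in Csf3r-gated cells 36 and 38 and in B cells 13 and 14. The upper quartile did not follow the median in Csf3r-gated cells, where it was 61 and 55, and was 20 in B cells of both libraries. More than 30 such UMIs were held by 2.67% and 28.2% of T cells and by 13.5% and 55.2% of macrophages. Thinning left out 15 and 30 T cells, 7 and 26 plasma cells and 6 and 50 macrophages.

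**Figure D4:**
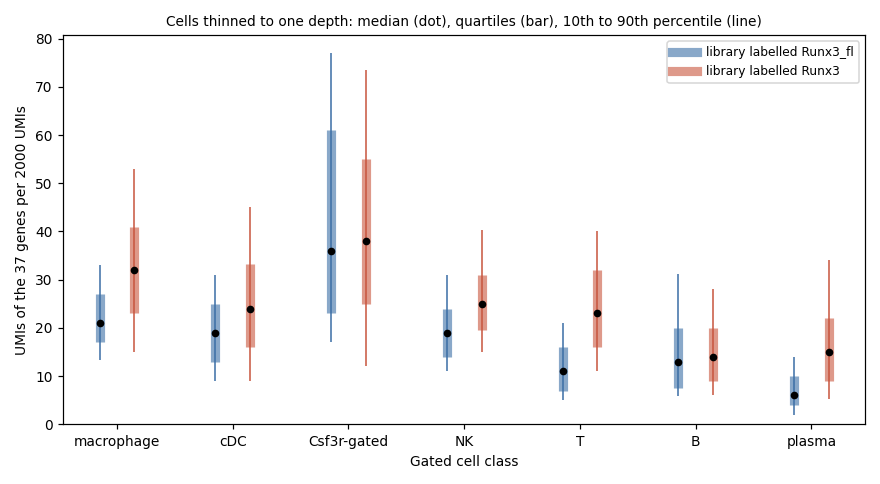
UMIs of the 37 early genes per cell after thinning to 2000 UMIs (vertical axis) in 7 gated classes (horizontal axis), blue for the library labelled Runx3_fl and red for that labelled Runx3; dots are medians, thick bars quartiles and thin lines the 10th to 90th percentile over cells, which are not replicates. The medians lie at 11 and 23 UMIs in T cells and at 6 and 15 in plasma cells, and near each other in B and Csf3r-gated cells.

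Myeloid markers moved with the library in T, NK and plasma cells and less so in B cells. In T cells the sum of 10 macrophage markers was 134 CPM where the label was Runx3_fl, against 383 CPM in the other library, all 10 higher and none at 0, and 8 neutrophil markers went from 51.5 to 352 CPM, all 8 higher. In plasma cells the macrophage markers went from 83.4 to 388 CPM and in NK cells from 80.3 to 166 CPM. In the library labelled Runx3 these sums reached 5.22% of the macrophage level in T cells, 5.29% in plasma cells and 2.26% in NK cells. The cDC markers made up larger shares. In plasma cells they went from 1292 to 4695 CPM, 8 of 9 higher, or from 7.90% to 28.0% of the cDC level. In T cells they went from 752 to 1579 CPM (9.41% of the cDC level), with 6 of 9 higher. In NK cells they went from 651 to 1300.3 CPM (7.75%), but only 4 of 9 were higher and 3 were at 0 in the library labelled Runx3. In B cells the cDC markers were at 7780 and 8980 CPM, 4 of 9 higher, and the macrophage markers at 569 and 620 CPM, 7 of 10 higher. The neutrophil markers went from 15.4 to 245 CPM in plasma cells, 7 of 8 higher, and from 27.6 to 263 CPM in NK cells, all 8 higher. In B cells they went from 175 to 434 CPM, 7 of 8 higher. Markers of other lineages moved in the myeloid gates too. B cell markers were at 40.1 and 117 CPM in macrophages, 63.9 and 106 in cDC and 42.8 and 95.4 in Csf3r-gated cells, all 7 higher. NK markers were lower there, at 245 and 28.2, 237 and 208, and 313 and 59.6 CPM in the same order. The part of these transcripts in the early gene differences was not tested. The makeup of the T class moved too, since 7 T markers went from 3837 to 1978 CPM and 8 NK markers from 2960 to 386 CPM.

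Leaving out every cell with a UMI of Lyz2, C1qa, C1qb, C1qc, S100a8 or S100a9 did not act on cDC markers and did not match depth. It kept 2104 and 59 T cells, 74.5% and 15.4% of the class, with median depths of 12237 and 5530 UMIs. In these 21 of 35 members were at least 2-fold higher (13.2% of all genes tested) and 0 lower (12.9%), with a median log2 ratio of 1.11. Fos was at 60.1 and 304 CPM and Jun at 46.8 and 257 CPM in them. The same removal kept 1102 and 13 NK cells, with 10 of 33 members higher (15.5% of all genes) and 0 lower (11%), and 106 and 204 B cells, with 4 of 36 higher (5.06%), 2 lower (4.86%) and a median of 0.04. T cells with a Cd8a UMI, 1115 and 75 cells, had 25 of 34 members higher (12.5% of all genes), 0 lower (11.4%) and a median of 1.60. Those with Cd4 and no Cd8a, 1257 and 114 cells, had 16 of 34 higher (10.6%), 0 lower (8.92%) and a median of 0.92. Fos had a log2 ratio of 2.93 in the first and 2.01 in the second.

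In the plasma gate immunoglobulin genes took 16.3% of UMIs where the label was Runx3_fl, against 26.8% in the other library. Counting CPM over the other genes only, 29 of 35 members were higher (15.9% of all genes tested) and 0 lower (12.4%), with a median of 1.92. Plasma cells with at least 10 Jchain UMIs, 236 and 88 cells, had 26 of 32 members higher (5.28% of all genes), 0 lower (35.2%) and a median of 1.80 beside −0.71 for all genes. Fos was at 92.3 and 1091 CPM in these cells. Without cells that held a myeloid UMI, 150 and 24 remained, with median depths of 21550.5 and 7249.5 UMIs. In these 26 of 35 members were higher (25.2% of all genes) and 1 lower (20.6%), with a median of 1.46.

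Macrophages were divided by Ly6c2, which marks recent monocyte descent. Those with a Ly6c2 UMI, 163 and 218 cells, had 14 of 34 members higher (10.7% of all genes tested), 0 lower (3.35%) and a median of 0.88. Those with none, 88 and 53 cells, had 8 of 35 higher, beside 16.9% of all genes, and 2 lower, beside 8.62%, with a median of 0.24 close to the 0.16 of all genes. Jun was higher in both, at 72.5 and 450 CPM with Ly6c2 and at 111 and 526 CPM without it. Egr1 and Rhob also stayed past 2-fold without Ly6c2, at 1.35 and 1.72. The members lower there were Dusp5, at 455 and 179 CPM (−1.34), and Csrnp1, at 448 and 203 CPM (−1.13). Whether this subset holds fewer Ly6c2 transcripts or only shallower cells was not tested, and its median depth was 11758 and 4337 UMIs.

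Csf3r-gated cells were divided by Csf1r, a monocyte and macrophage receptor, and Cxcr2, a neutrophil chemokine receptor. Cells with a Csf1r UMI, 690 and 711, had 10 of 34 members higher (8.94% of all genes tested), 0 lower (2.58%) and a median of 0.64. Their neutrophil markers went from 2488 to 13143 CPM and their macrophage markers from 5448 to 3541 CPM, and the part of this shift was not tested. Cells with a Cxcr2 UMI and no Csf1r UMI, 288 and 225, had 2 of 34 higher (28.4% of all genes) and 18 lower (15.4%), with a median of −1.10. Nfkbia was at 4982 and 1293 CPM and Ppp1r15a at 2024 and 498 CPM in these cells, while Fos was at 489 and 632 CPM and Rhob at 52.4 and 108 CPM. The 8 neutrophil markers stood at 26489 and 175429 CPM in them.

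Cells with fewer than 3 UMIs of Ngp, Camp and Ltf, which encode granule proteins made by neutrophil precursors, numbered 1362 and 1230 over the whole gate and had 7 of 34 members higher (8.28% of all genes), 0 lower (2.56%) and a median of 0.49.

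Cells rich in these granule transcripts held the early genes at low levels. Of the 225 Cxcr2 cells, 78 held at least 3 such UMIs against 2 of 288 in the library labelled Runx3_fl, and they contributed 68.6% of the UMIs. Within the library labelled Runx3 the 37 genes summed to 5378 CPM in these 78 cells and to 30794 CPM in the other 147, and 29 of 34 members were at least 2-fold lower in the granule-rich cells (26.9% of all genes tested) and 0 higher (25.1%). The median log2 ratio was −2.56, beside 0.12 for all genes. Junb was at 580 and 3180 CPM and Nfkbia at 296 and 3474 CPM in granule-rich and other cells, while Klf2, at 314 and 311 CPM, and Ier2, at 410 and 355 CPM, were near level. Comparing libraries over Cxcr2 cells with fewer than 3 such UMIs, 286 and 147 cells, left Fos (493 and 1276 CPM, 1.37) and Rhob (1.27) higher, beside 15.5% of all genes, Egr3 (−1.86) lower, beside 4.8%, and a median of 0.16, under the 0.26 of all genes. Short of 2-fold, Nfkbia (4939 and 3474 CPM, −0.51), Ppp1r15a (2014 and 1374 CPM, −0.55) and Nfkbiz (2807 and 1860 CPM, −0.59) were still lower beyond counting error, as were Gadd45b, Trib1 and Junb with −0.27, −0.27 and −0.18.

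**Figure D5:**
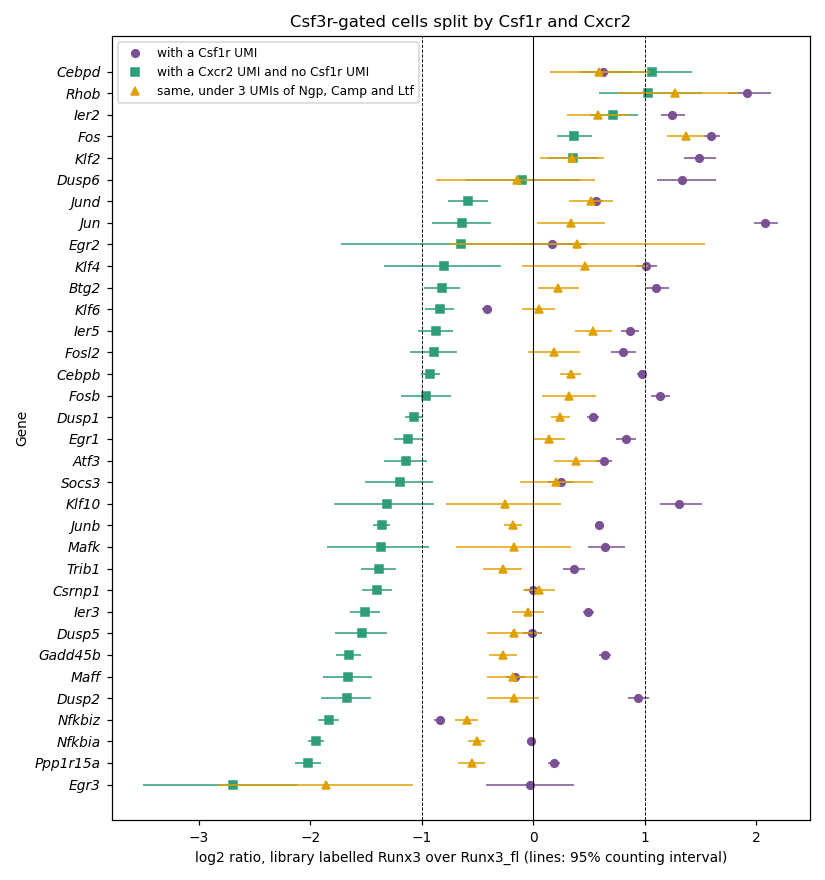
Log2 ratio of CPM + 1, library labelled Runx3 over library labelled Runx3_fl (horizontal axis, with 95% counting intervals), for 34 early genes (vertical axis) in Csf3r-gated cells with a Csf1r UMI (purple circles), with a Cxcr2 and no Csf1r UMI (green squares) and in the latter with fewer than 3 UMIs of the granule genes Ngp, Camp and Ltf (yellow triangles). The medians are 0.64, −1.10 and 0.16, so that most green squares lie left of the other symbols.

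Other genes of the pathway were counted by lists. Of 32 further early response genes 13 of 27 were at least 2-fold higher in T cells (11.2% of all genes) and 12 of 26 in plasma cells (11.7%), with medians of 0.91 and 0.96. It was 7 of 27 in macrophages (9.53%), 4 of 27 in cDC (5.99%), 3 of 27 in NK cells (4.11%), 2 of 27 in B cells (2.87%) and 3 of 27 in Csf3r-gated cells, where the share of all genes was 9.34%. The list was mixed in direction, since 2 were lower in macrophages (3.15% of all genes), 1 in cDC (1.47%), 4 in Csf3r-gated cells (3.07%) and 2 in B cells (2.66%). Tsc22d3, which glucocorticoids induce, was at 28.6 and 115 CPM in macrophages (1.96), and Spred1, an inhibitor of the ERK pathway, was at 442 and 157 CPM (−1.48). Dusp10, a further phosphatase of JNK and p38, had the highest ratio of that list in T cells, at 60 and 420 CPM (2.79), against 0.96 in plasma cells.

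For the upstream kinases and factors most counts were small. Of 30 genes for ERK, JNK and p38 kinases with SRF, ETS and CREB factors, 2 of 28 were at least 2-fold higher in macrophages (9.53% of all genes), 2 of 26 in T cells (11.2%), 3 of 28 in Csf3r-gated cells (9.34%) and 3 of 26 in plasma cells (11.7%). It was 1 of 27 in NK cells (4.11%), 1 of 26 in B cells (2.87%) and 0 of 27 in cDC (5.99%), and 1 was lower, Batf in T cells (123 and 41.4 CPM, −1.55), where 8.86% of all genes were. Their medians were −0.04 to 0.24 outside plasma cells and 0.44 in plasma cells, where the median of all genes was −0.15. Srf itself was at 6.36 and 18.9 CPM in macrophages (1.44) and had the highest ratio of this list in NK cells, also 1.44. In T cells it was at 11.1 and 8.54 CPM (−0.34), under the level limit of 10 CPM.

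Of 18 heat shock genes, which HSF1 induces upon heat and protein damage, a minority passed 2-fold. In T cells 6 of 17 were higher (11.2% of all genes), in cDC 5 of 17 (5.99%), in macrophages 4 of 17 (9.53%), in Csf3r-gated cells 4 of 17 (9.34%), in NK cells 4 of 17 (4.11%), in plasma cells 4 of 18 (11.7%) and in B cells 3 of 17 (2.87%), and none was 2-fold lower in any class. The medians were 0.22 to 0.51, and Stip1, a cochaperone, had −0.86 in plasma and −0.54 in T cells. Hspa1a was at 183 and 1175 CPM in macrophages, at 34.8 and 717 CPM in T cells and at 37.3 and 738 CPM in plasma cells. Hspa1a and Hspa1b are near-identical copies and their separate counts are uncertain. Of 12 housekeeping genes 0 passed 2-fold in macrophages, cDC, Csf3r-gated, NK and B cells. In T cells 5 of 12 were lower (8.86% of all genes) and 1 higher (11.2%). In plasma cells 3 of 11 were lower (17.3%) and 1 higher (11.7%). The median log2 ratio of the housekeeping genes was −0.13 in T and −0.82 in plasma cells, beside 0.04 and −0.15 for all genes. In the other classes it was −0.01 to 0.34. The part of handling, of the mix of cell subtypes and of free RNA in the differences of the early genes was not tested.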

How the data were processed

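Cells of mouse colon lamina propria had been captured with droplet chemistry of 10x Genomics (3′ kit V3 per the labels) and sequenced. The authors deposited UMI counts of genes in filtered cells, made with Cell Ranger 7.1.0 (per the file headers), with lists of barcodes and gene IDs, and their processing notes name mm10 and Seurat 4. The annotation release and any strand or intron setting are not given in the sources used here. Gene positions came from GENCODE M21, which held 32158 of the 32285 gene IDs and all 37 members. Of these, 2 overlapped a gene on the same strand and 11 a gene on the opposite strand.

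The members and lists were chosen with earlier results of these data known. Cells with 200 to 6000 genes and at most 15% mitochondrial UMIs were kept, 11885 and 8167 cells with 146204416 and 75478164 UMIs in the deposited matrices. Gates needed 1 UMI of each gate gene. Doublets were treated by the ceiling of 6000 genes and by leaving out the 1208 and 1644 cells that passed several gates, and no caller was run. Cells without a gate, 3638 and 2613, were left out. Counts were summed per class and library and scaled to CPM. Levels carry exact Poisson intervals and ratios exact binomial intervals, both at 95% and for counting error only. A log2 ratio used a pseudocount of 1 CPM, whereas its interval used none. A gene was called at 2-fold among genes with a mean of at least 10 CPM over both libraries. The study's methods name a Poisson model over cells, but cells are not replicates, so no test was made.

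Members called in 4 or more classes were named in every class, those called in 1 class in that class with the range of the others, the highest and lowest member per class were named, and the rest were given by range and count. A few further members and list genes were named after their values were seen. Scripts in Python 3.11.15 with numpy 2.4.6, scipy 1.17.1 and pandas 2.3.3 were tested on simulated data. Alternatives were another gate, gate overlap, scaling, cell weight, thinning to 2000 UMIs, pseudocounts, filters and subsets of cells by Ly6c2, granule genes, Cd8a and Cd4. The subsets by Cxcr2, Csf1r and Jchain, cells without myeloid UMIs, CPM without immunoglobulin genes and removal of shared barcodes were chosen after seeing the data.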

Additional observations from a re-analysis of the deposited data

Results flagged for a closer look

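For 14 of the 37 members (37.8%) the log2 ratio between the libraries had opposite signs beyond counting error in 2 classes, at a distance of at least 1. The same held for 2613 (26.4%) of the 9884 genes that passed the level limit in some class. Among genes that passed it in all 7 classes it held for 10 of 30 members (33.3%) and 1975 of 5674 genes (34.8%), so that the members' share lay near that of all genes. With 1 library per group none of these differences was tested. Egr3 differed by 3.90 between plasma cells (3.21) and Csf3r-gated cells (−0.69), and Fosb by 2.58 between plasma cells (2.27) and B cells (−0.31). Between T cells and Csf3r-gated cells Maff differed by 2.54 (2.15 and −0.39), Ppp1r15a by 2.43 (2.21 and −0.22) and Csrnp1 by 1.70 (1.49 and −0.21). Between plasma cells and Csf3r-gated cells Nfkbia differed by 1.93 (1.47 and −0.45) and Nfkbiz by 1.39 (0.35 and −1.04). Dusp2 differed by 2.53 between plasma cells (2.33) and T cells (−0.20), and Ier5l by 2.33 between T cells (1.47) and NK cells (−0.86). Dusp4 differed by 1.64 between cDC (0.81) and B cells (−0.83), Myc by 1.49 between T cells (0.95) and B cells (−0.55), and Klf6 by 1.41 between plasma cells (0.90) and cDC (−0.52). Trib1 differed by 1.44 between NK cells (1.11) and plasma cells (−0.33), and Dusp5 by 1.07 between plasma cells (0.85) and NK cells (−0.22). The lower value belonged to Csf3r-gated cells for 6 of these genes, the class whose gate held both macrophage and neutrophil markers.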

How the results depend on the processing

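No paired analysis was possible because each group had 1 library and the labels give no replicate numbers, and for the same reason no library could be left out. Of 273 alternative values for counts and medians by class, 247 stayed within their limits and 26 moved. In macrophages without a Ly6c2 UMI 8 members were higher, 2 lower and the median was 0.24. In cDC a pseudocount of 10 CPM left 8 higher. In Csf3r-gated cells 2 were lower with a gate of 2 UMIs or equal weight per cell, and 0 with cells in every class they passed or with few granule UMIs. With Cxcr2 and no Csf1r, 2 were higher and 18 lower, the median was −1.10, and Jun reversed to −0.64. With few granule UMIs besides, 2 were higher. With Csf1r, 10 were higher, 0 lower and the median was 0.64. In NK cells 1 was lower without a level limit, and 10 were higher without cells that held a myeloid UMI, which left 13 cells of the library labelled Runx3. T cells with Cd4 and no Cd8a had a median of 0.92. In B cells a gate of 2 UMIs gave 5 higher and a median of 0.45, thinning gave 1 higher, and 2 were lower without myeloid UMIs. Cells in every class they passed gave 25 higher, 1 lower and a median of 1.52 there, a class that then holds plasma cells by construction. In plasma cells 1 was lower without myeloid UMIs. Single shared genes were followed only in classes where they were already past 2-fold, so these values say nothing of their other classes. Removal of shared barcodes was not among these values. Nor were cells with Csf1r, or those with Cxcr2, no Csf1r and few granule UMIs. The ratio stayed above 0 in 646 of 647 values and past 2-fold in 595. It stayed within the main counting interval in 450, moved out of it in 196 and reversed in 1. Plasma cells had the highest median in all 12 settings run on every class, followed by T cells in all but that with cells in every class they passed. With 101 NK cells and 143 B cells in the smaller library of each class, ratios of genes near 10 CPM there are the least precise.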
